A study of Mus musculus with 8 samples.

Results

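The Pdk4 locus carried wide H3K27ac peaks in small intestinal crypts of fasted mice and almost none in those of fed mice. The locus was taken as all peaks overlapping chr6:5420000-5530000 (mouse build mm9), which gave 32 of the 117035 peaks in the 4 peak lists. The window holds the gene, on the minus strand at about 5.433 to 5.446 Mb, and the stretch upstream of it, and was divided at 5450000 into a gene part of 30 kb and an upstream part of 80 kb. The locus was chosen by its peaks, which were known from an earlier analysis of these lists. Its differences between feeding states are therefore given as a description, with no test.

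The assay was chromatin immunoprecipitation with sequencing for H3K27ac, acetylation of lysine 27 of histone H3, which marks active promoters and enhancers. Fed mice had free access to food and fasted mice had none for 24 h, both with water. The mice were males and females of 6 to 12 weeks from the strains Lgr5EGFP-IRES-CreERT2/+ and C57BL/6J, and the labels do not say which strain entered which library. Each state had 2 H3K27ac libraries, named fed 1, fed 4, fasted 2 and fasted 5 after their labels, and each library came from whole crypts pooled from 4 animals. All solutions for crypt isolation, fed and fasted, held 100 nM trichostatin A, an inhibitor of histone deacetylases. The lists held 27640 and 15504 peaks for fed 1 and fed 4, against 37974 and 35917 for fasted 2 and fasted 5, and covered 48.8, 21.9, 99.2 and 109.1 Mb in that order. Read depth is unknown. Crypts hold several cell types, so more acetylated cells and more acetylation per cell cannot be told apart, and the crypt label was not checked against marker genes.

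Pdk4 encodes pyruvate dehydrogenase kinase 4, a mitochondrial enzyme that phosphorylates and thereby inhibits the pyruvate dehydrogenase complex. That complex turns pyruvate from glucose into acetyl-CoA, so the kinase spares glucose when cells burn fat. Pdk4 is a classic fasting-responsive gene in muscle, heart and liver and a known target of the fatty acid sensing PPAR nuclear receptors. Among protein-coding genes, its neighbours in RefSeq are Asb4 on the downstream side and Dync1i1 on the upstream side.

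The 250 bases before the start of Pdk4 are shown because the fasted peaks nearest the gene extended across the gene's upper end. The sequence is from RefSeq (GRCm38.p6, minus strand), and capitals mark its 6 CG pairs.
Pdk4: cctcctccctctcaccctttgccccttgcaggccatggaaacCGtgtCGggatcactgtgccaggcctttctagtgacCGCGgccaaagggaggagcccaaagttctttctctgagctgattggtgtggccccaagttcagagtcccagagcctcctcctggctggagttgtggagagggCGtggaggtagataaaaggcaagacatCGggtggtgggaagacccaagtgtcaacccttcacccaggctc
Its G and C content was 58.8%, against a median of 52.4% over the same stretch of 32851 promoters. The median number of CG pairs over those promoters was also 6. None of 6 motifs searched on both strands matched in the 300 bases from 250 before to 50 after the start of Pdk4. The hexamer AGGTCA, which many nuclear receptors recognise, was in 16.3% of all promoters, and a repeat of it with 1 base between the copies, the PPAR type of site, in 0.0396%. The longer CAAGGTCA, which contains AGGTCA, was in 1.56%. The forkhead motif TGTTTAC was in 3.65%, the glucocorticoid receptor hexamer AGAACA in 19% and the CREB motif TGACGTCA in 1.79%. These letters were searched in this short window alone.

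Of the window, fasted 2 peaks covered 34351 bp and fasted 5 peaks 35830 bp. Fed 1 peaks covered 686 bp and fed 4 peaks 0 bp. The fasted libraries lay close together and far above both fed libraries. The means were 35.09 ± 1.05 kb in the fasted and 0.34 ± 0.49 kb in the fed state (SD, n = 2), which for the fasted libraries is 31.2% and 32.6% of the window. By number, fasted 2 had 16 peaks and fasted 5 had 15, while fed 1 had 1 and fed 4 had 0. The order of the libraries alone says little: each fasted library exceeded each fed library in covered bases in 83.4% of the 8983 tiles of the same width that had a peak of any library. With 2 libraries against 2, an exact permutation test could not have gone below p = 0.333.

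**Figure D1:**
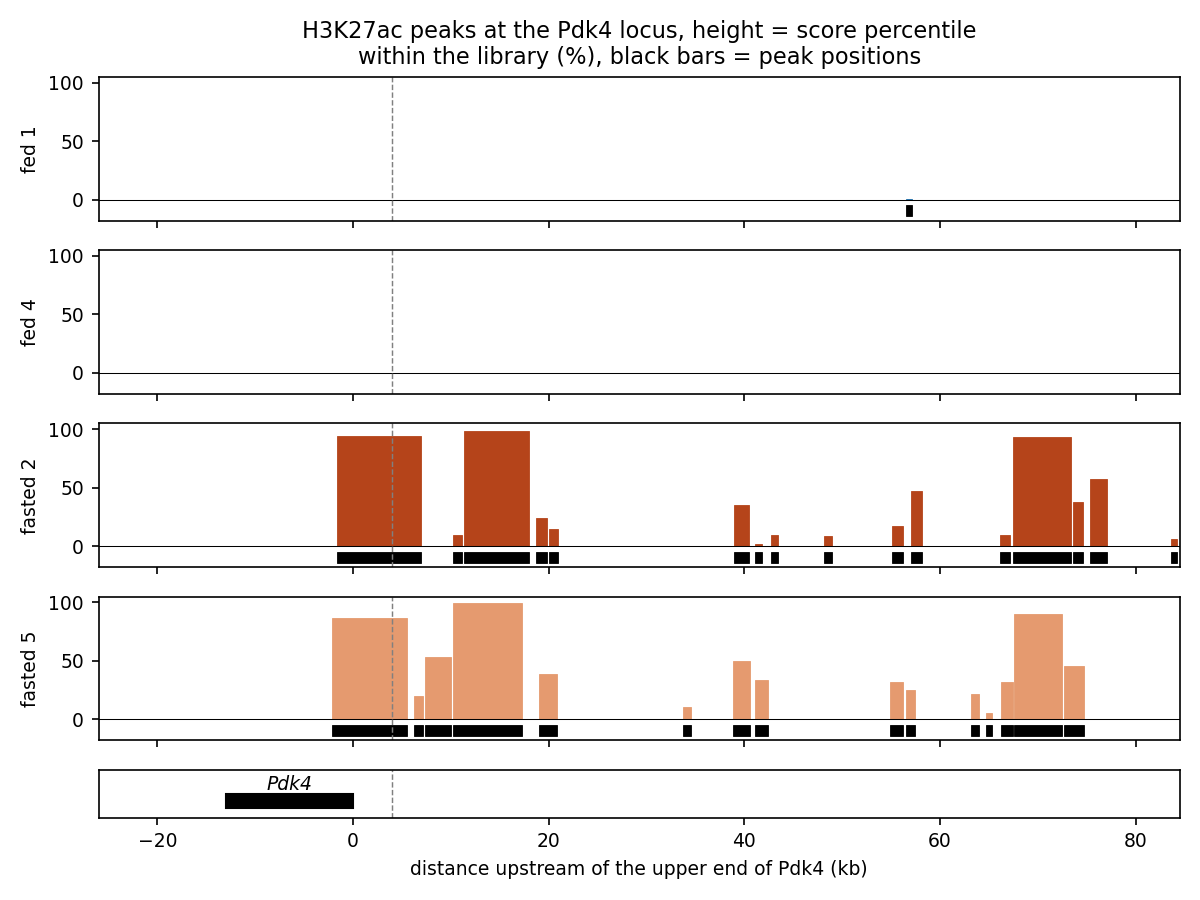
Peaks of the 4 libraries in the window, with distance upstream of the upper end of Pdk4 in kb on the x axis and the score percentile of each peak within its own list (%) as its height. Black bars mark peak positions, the black box is the gene as placed by the rule, and the dashed line divides the gene and upstream parts. Both fasted libraries have 3 tall blocks, and the single fed peak, in fed 1, is at percentile 0.75.

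In the gene part, fasted 2 peaks covered 5553 bp and fasted 5 peaks 6121 bp, and no fed peak was present. All of this came from a single wide peak in each fasted library, which lay over the gene's upper end and ran on past the dividing position. Within the 13 kb of the gene interval itself, the fasted 2 peak covered 1553 bp and the fasted 5 peak 2121 bp, at the upstream end. The rest of the gene body and the stretch below it in the window had no peak in any library. In the upstream part the covered length was 28798 bp for fasted 2, 29709 bp for fasted 5, 686 bp for fed 1 and 0 bp for fed 4. The upstream part, 80 kb wide against 30 kb, thus held most of the acetylated length of the locus in both fasted libraries. Relative to width, fasted 2 peaks covered 36.0% of the upstream part and 18.51% of the gene part. For fasted 5 these shares were 37.14% and 20.4%.

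**Figure D2:**
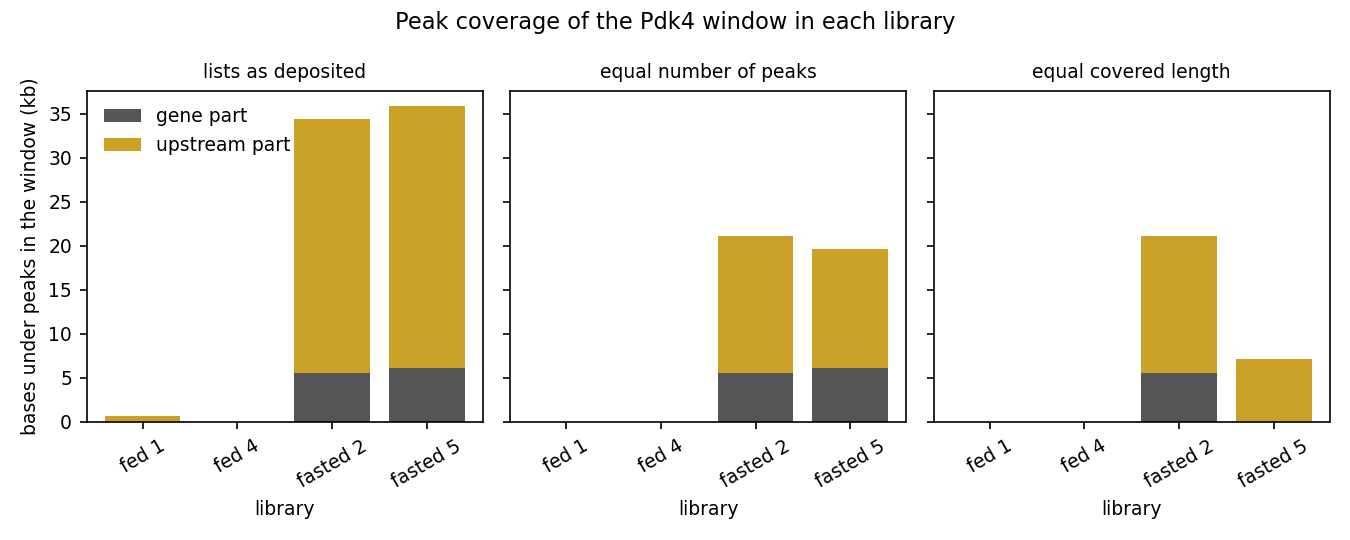
Bases under peaks (kb, y axis) in the gene part (grey) and the upstream part (yellow) of the window for each library (x axis), in the lists as deposited, with 15504 top-scoring peaks from each list and with 21.9 Mb of top-scoring peaks from each list. The 2 fasted bars reach 34351 and 35830 bp as deposited. At equal covered length fasted 5 keeps 7140 bp, and both fed libraries are at 0 in both equalised settings.

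Merging the peaks of all libraries wherever they overlapped by 1 bp or more gave 17 regions in the window. Both fasted libraries and no fed library had a peak at 8 of them, against 19.3% of all 43091 regions of the genome. Among the 9 regions of the window that had a peak in both fasted libraries, 8 had no fed peak. The same was true of 36.3% of the 22926 such regions genome-wide. These counts use the values that chose the locus, so nothing further is read from them.

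Across the gene's upper end lay a region at chr6:5443880-5453187. In fasted 2 it was a single peak of 8427 bp at score percentile 94.5. In fasted 5 it was a peak of 7597 bp at percentile 86.6 followed by a peak of 955 bp at percentile 19.99. The wide peaks began 1.6 kb (fasted 2) and 2.1 kb (fasted 5) inside the gene and reached 6.9 and 5.5 kb upstream of it. The nearest fed peak was 49269 bp away. A promoter in use commonly has H3K27ac on the nucleosomes on both sides of its start, which this region spans.

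The highest-ranked region of the locus was the next one upstream, at chr6:5456174-5464017, 10.2 to 18.0 kb before the gene. Its main peak was 6748 bp wide at percentile 98.3 in fasted 2, where it ranked 631 of 37974, beside a narrow peak of 910 bp at percentile 9.4. In fasted 5 it was a single peak of 7140 bp with a score of 3100, a value shared by many peaks that together span percentiles 96.0 to 99.6. By the lower of its fasted percentiles this region stood first among the 8319 regions with both fasted and no fed peaks. With the tied peaks placed at their lower edge, 3 of the 822 regions ranked as high lacked a fed peak, this region among them.

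A further wide region lay at chr6:5513496-5520686, 67.5 to 74.7 kb upstream. Its main peak was 5896 bp wide at percentile 93.1 in fasted 2 and 4946 bp wide at percentile 90.2 in fasted 5, and each library had a narrower second peak there. This region stood 18th, and the one across the gene's upper end 51st, among the same 8319 regions. The region 10.2 to 18.0 kb upstream ranked first of the 3 in both fasted libraries, but the other two changed places: the region at the gene was ahead in fasted 2 and the far region in fasted 5. The scores of the main peaks, as the authors gave them, were 896.6, 1342.14 and 808.5 from the gene outward in fasted 2 and 1628.06, 3100 and 1997.2 in fasted 5. The scale of the scores is not stated, so these values are not compared between lists.

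Regions that ranked this high in the fasted libraries nearly always had a fed peak elsewhere in the genome. Of the 3425 regions at or above the lowest of the 3 in fasted percentile, fed 1 had a peak at 97.5% and fed 4 at 81.1%, and 1.49% had neither. Of the 2366 regions that ranked at least as high as the far region, the shares were 98.8% for fed 1 and 85.7% for fed 4. For the region 10.2 to 18.0 kb upstream, fed 1 had a peak at 436 of the 438 regions as high and fed 4 at 423. The Pdk4 region was the 1 region of the 438 with neither. The 3 regions were picked from those of the window without a fed peak, and the locus was chosen by its peaks. These shares are therefore background to the description and no support for it.

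**Figure D3:**
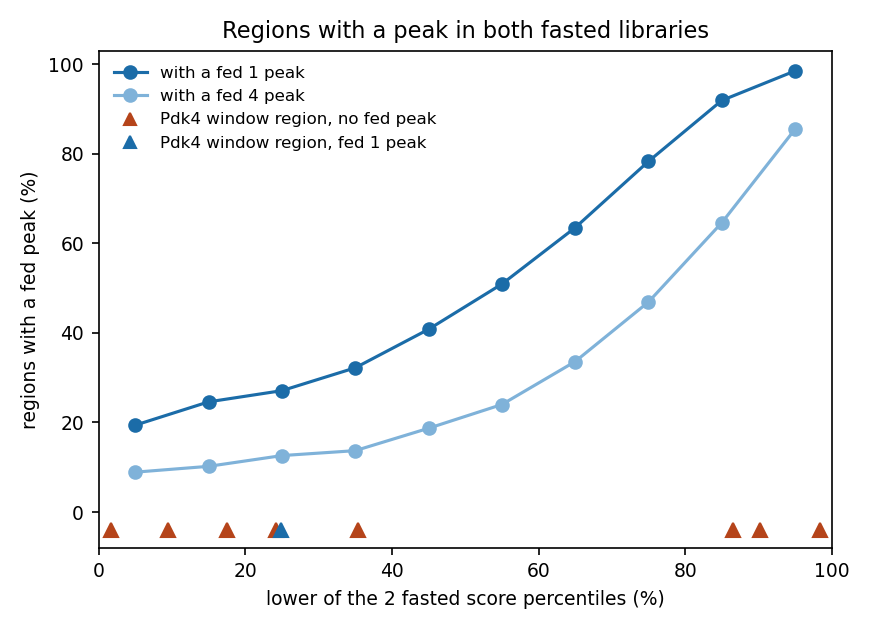
Share of regions with a peak in both fasted libraries that also had a fed 1 peak (dark) or a fed 4 peak (light), in % on the y axis, by the lower of their 2 fasted score percentiles on the x axis, in 10 equal steps. Triangles on the lower edge mark the 9 regions of the Pdk4 window. In the top step the share was 98.5% for fed 1 and 85.5% for fed 4, and in the step below it 91.9% and 64.6%. The 2 triangles in the top step and the triangle at 86.56 in the step below had neither.

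The other 6 regions shared by both fasted libraries were small and ranked low, at lower percentiles of 1.64 to 35.4 and widths of 1367 to 2187 bp. They lay 18.7 to 67.5 kb upstream. Of these 6, 5 had no fed peak, as had 67.7% of all regions whose lower fasted percentile was below 40, so little sets them apart. The exception was the region at chr6:5502457-5504168, 56.5 to 58.2 kb upstream. It held the fed 1 peak, 686 bp wide with a score of 50.33, where the lowest score of that list was 50.01. At that place fasted 2 had a peak of 1160 bp at percentile 46.8 and fasted 5 one of 897 bp at percentile 24.9.

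A further 8 regions had a peak in 1 fasted library, 4 in each. The widest, 2658 bp at percentile 53.0 in fasted 5, filled most of the space between the region at the gene and the next one upstream. In fasted 2 the highest-ranked of them was a peak of 1737 bp at percentile 57.5, at 75.3 to 77.1 kb. Bases under peaks in both fasted libraries made up a Jaccard index (shared divided by total covered bases) of 0.642 in the window, near the 0.65 of the whole lists. The index was 0.907 in the gene part and 0.598 in the upstream part, so the fasted libraries differed mostly in the small upstream peaks.

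At the window's upper edge, fasted 2 had its last peak at chr6:5529552-5530176 (percentile 6.46), and the first peaks outside began at 5533799 in fasted 2 and at 5534015 in fasted 5. The fasted 5 peak outside was at percentile 66.1. On the lower side the nearest outside peaks ended at 5393025 in fasted 2 and 5400105 in fasted 5, well before the first peaks inside at 5444448 and 5443880. When peaks up to 12 kb apart were joined, the locus formed 2 domains in fasted 2 and 3 in fasted 5. The domain at the gene held 5 peaks and 18.03 kb of covered bases in fasted 2, where it ranked 1392 of 6532 domains of 2 or more peaks, and 5 peaks and 20.1 kb in fasted 5, where it ranked 1250 of 6811. The upstream domain of fasted 2 held 14 peaks and 20.3 kb and ran past the window to 5543324. The upstream domains of fasted 5 held 3 peaks and 3.9 kb (5479731 to 5488440) and 7 peaks and 11.82 kb (5500867 to 5520686), and its next peak, at 5534015, lay outside both. By covered bases the domain at the gene was thus in the upper part of the ranking in both fasted libraries but far from its top.

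The window was compared with tiles of 110 kb across chromosomes 1 to 19 and X. In 565 tiles, 6.29% of those with a peak, both fasted libraries covered at least 34351 bp. In those tiles the higher fed coverage had a median of 27248 bp and was never below 4242 bp, so 0% of all tiles had as much fasted and as little fed coverage as the Pdk4 window. With tiles shifted by 55 kb there was 1, which overlaps the window. The lower fasted coverage exceeded the higher fed coverage by 33665 bp in the window, and by more than that in 14 tiles (0.156%), against a median of 3024 bp. The window was placed on the locus and the tiles were not, which favours the window. The locus was also chosen by these same peaks, so its place among the tiles is background to the description and no support for it.

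**Figure D4:**
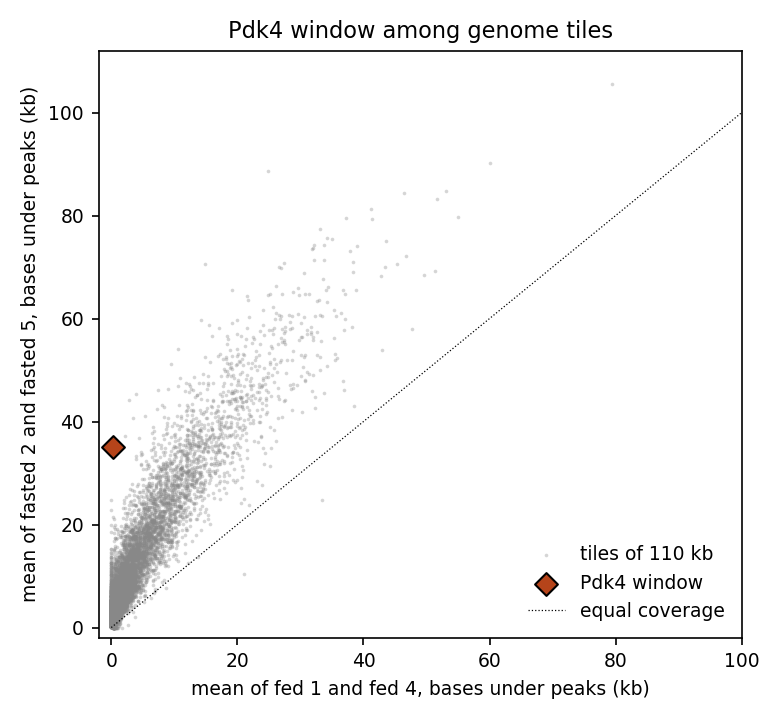
Mean bases under peaks in the fed libraries (x axis, kb) and in the fasted libraries (y axis, kb) for the 8983 tiles of 110 kb (grey points) and for the Pdk4 window (diamond), with a dotted line at equal coverage. The window is at 0.34 kb fed and 35.09 kb fasted, at the left edge of the cloud and above the tiles with as little fed coverage.

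When the lists were made equal, the fasted libraries kept fewer covered bases at Pdk4. The single fed peak was at percentile 0.75 of fed 1, and fed 4 had no peak there. Taking top-scoring peaks was thus bound to leave both fed libraries at 0 bp. That a difference remained is therefore no support, and only the fasted lengths are informative. With the 15504 top-scoring peaks from each library, 3 peaks were left in the window in each fasted library, covering 21071 bp in fasted 2 and 19683 bp in fasted 5, and both fed libraries had 0 bp. These were the main peaks of the 3 leading regions. With top-scoring peaks of equal covered length, 21.9 Mb from each list, fasted 2 kept the same 3 peaks, and fasted 5 kept 1, the peak of 7140 bp at 10.2 to 17.3 kb upstream. The region at the gene and the far region therefore had no fasted 5 peak under that setting, which leaves 2615 peaks of fasted 5 beside all 15504 of fed 4. Numbers in the deposited file names, 10 or 11, put fed 1 with fasted 2 and fed 4 with fasted 5. Covered length was higher in the fasted library by 33665 bp within the number 10 and by 35830 bp within the number 11.

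Fed 4 had no peak over a much longer stretch than this locus. Its first peak on chromosome 6 began at 7797299, and before that position fed 1 had 11 peaks, fasted 2 had 51 and fasted 5 had 54. The lack of fed 4 peaks at Pdk4 is thus shared with several megabases around it, and its part in the result was not tested. Without fed 4 the difference in covered length was 34404.5 bp, against 34747.5 bp with it. Fed 1 had no peak from 5248214 to 5502456, a stretch of 254.2 kb in which peaks covered 27.6 kb in fasted 2 and 38.5 kb in fasted 5. Among 27640 stretches between neighbouring fed 1 peaks or before the first of a chromosome, 12 held more fasted coverage by the lower of the fasted libraries, and the median was 0.92 kb. These stretches are of all lengths and were not matched to the 254.2 kb of this one, and a longer stretch can hold more coverage. The locus was chosen by its peaks in these lists, so the place of its stretch among the others is no support.

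Peaks were few on both sides of the window. Within 500 kb on each side and outside the window, 10 regions had a peak in both fasted libraries. Fed 1 had a peak at 4 of these 10 and fed 4 at 0. On all of chromosome 6 outside the window, these 10 included, fed 1 had a peak at 57.5% of 1240 such regions and fed 4 at 34.4%. The flanking region at chr6:5245840-5249200 is the nearest comparison for rank. It stood at percentile 85.8 in fasted 2 and 94.7 in fasted 5, like the region across the end of Pdk4, and it had a fed 1 peak at percentile 43.7 and no fed 4 peak. Fed 1 had none at the 3 leading Pdk4 regions, which were picked from those without a fed peak. This neighbour is 1 of the 10 flanking regions, and the reason for the contrast was not tested.

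**Figure D5:**
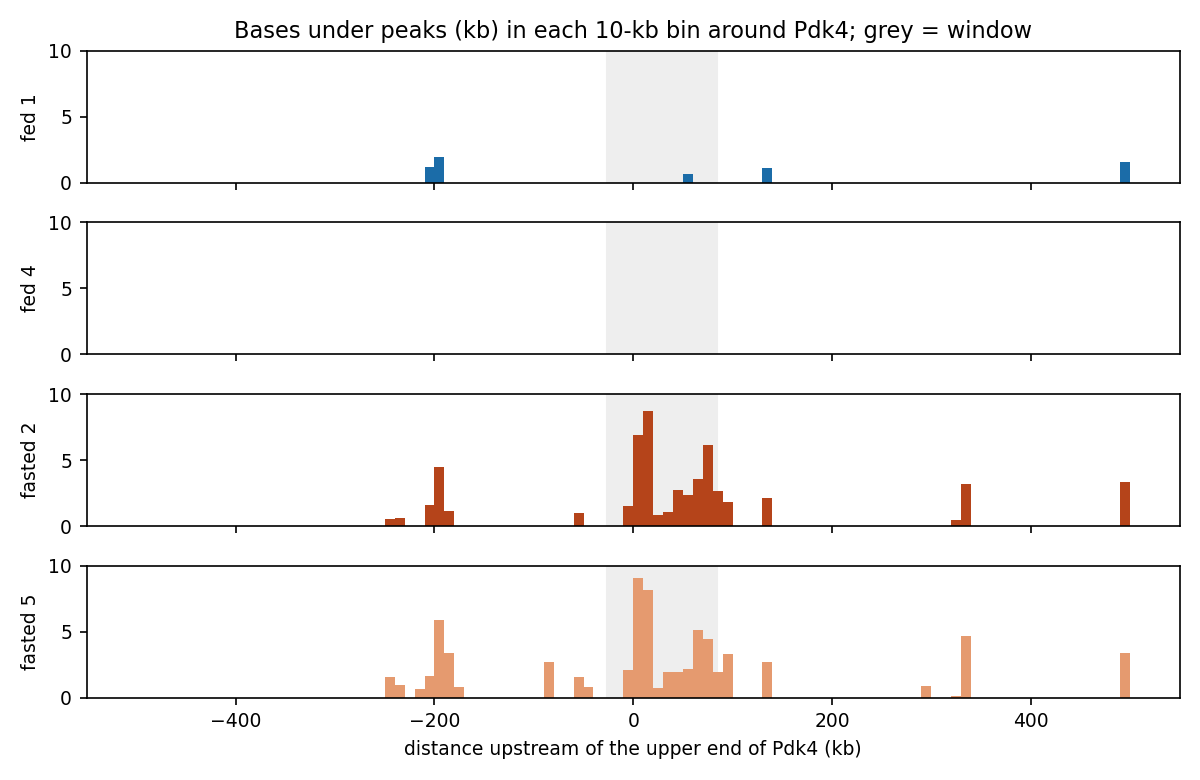
Bases under peaks (kb, y axis, one row for each library) in bins of 10 kb within 500 kb of the upper end of Pdk4 (x axis, kb upstream). The grey band is the window. Fasted coverage is highest within the band, fed 1 has a peak at 1 place inside it and at 3 places outside, and fed 4 is at 0 throughout.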

How the data were processed

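H3K27ac peak lists of 4 libraries were used, and the 4 input libraries were not analysed here. The build was mm9 and the tools Bowtie 1.1.2, deepTools 1.5.11, SAMtools 1.9 and FastQC, per the submitters' processing notes. Peak names in the deposited files point to MACS; the sources used here do not give its version or parameters. Each deposited list holds the position in bp and a score for each peak. The authors gave this score on a scale that is not stated, and no list goes below 50.0. A score percentile is the percentage of peaks in a library's own list that score no higher. With no read counts, depth and its error are unknown.

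The gene position was supplied with the window, rounded to 1 kb, and was not checked against an mm9 annotation, which was not used here. Genes other than Pdk4 were therefore given no peaks. Start positions were converted to count from 1, except for the window limits. Interval functions in Python 3.11.15 were tested on simulated lists. The window, the comparisons, the named gene and the motif list were chosen with earlier results of these data known. Separate pools make up the replicates of a state.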

Additional observations from a re-analysis of the deposited data

How the results depend on the processing

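Of 63 alternatives, 22 stayed within the spread between replicates, within 1.5 times a count or within the interval of a share. The other 41 were counted as moving further, and 0 as reversed. Counts of regions and shares of tiles have no sign, so a reversal was possible for the 47 differences alone. Differences divided by the covered length of each list are among the 41. They are in parts in 1000000, so their size cannot be compared with a spread in bp. All 47 differences in covered length or peak number stayed above 0. With 686 bp in fed 1 and 0 bp in fed 4, hardly any setting could have brought them below 0. Their sign is therefore no support, and only their size is informative. The fasted-minus-fed covered length in the window, 34747.5 bp, was 27871 bp at a score of 100 or more, 23575.5 bp at 200 or more, 20377 bp with equal peak numbers and 14105.5 bp at equal covered length. The score minimums apply a single value to scores whose scale may differ between lists. In the upstream part, 28910.5 bp became 22034, 17738.5, 14540 and 11329 bp in the same order, and in the gene part 5837 bp became 2776.5 bp at equal covered length. Peaks in the window, a difference of 15, fell to 7.5, 4.5, 3 and 2, and regions with both fasted and no fed peaks, 8, to 3, 3, 3 and 1, while their share of all regions went from 19.3% to 34.2%, 45.9%, 13.2% and 0.6%. Joining across gaps of up to 1000 bp also left 3 (20.3% of all regions). Dividing by the covered length of each list gave differences of 330.34 (window), 56.05 (gene part) and 274.3 (upstream part) parts in 1000000. Dividing the window at the gene's upper end gave 1837 bp and 32910.5 bp for the parts. Within the file-name numbers 10 and 11 the window gave 33665 and 35830 bp, the gene part 5553 and 6121 bp, the upstream part 28112 and 29709 bp, and 15 regions each, where 50.7% and 71.0% of all regions were of that kind. Leaving out each library in turn gave 5553 to 6121 bp in the gene part and 8 to 15 regions. The higher counts, 14 without fasted 2 and 15 without fasted 5 (45.3% and 44.1% of all regions), arise because a peak in 1 fasted library then suffices. The share of tiles with both fasted above both fed, 83.4%, was 38.9% after division by covered length, 75.1% with equal peak numbers and 17.9% at equal covered length. Chosen after seeing the data, it was 98.6% in tiles with at least the window's fasted coverage. Also chosen then, the stretches around the gene without fed 1 and without fed 4 peaks gave differences of 33066 and 94529 bp.

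Unknown depth limits all comparisons: the files cannot show whether fed acetylation below the peak threshold was present at Pdk4. The fed and fasted libraries share no replicate numbers in the labels, so beyond the values within the file-name numbers no pairing was used.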

Other observations

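The promoters of the other genes that set or serve pyruvate dehydrogenase activity were searched for the same motifs as that of Pdk4. Of 14 genes listed, Pdk4 among them, 13 had an entry, and Pdp1 had none. They had 16 promoters in all, of which 1 was that of Pdk4. AGGTCA matched in the promoter of Mpc1, a subunit of the mitochondrial pyruvate carrier. AGAACA matched in that of Pdk1, another kinase of the complex, and TGACGTCA in that of Pdpr, a regulator of the phosphatase that reverses the kinases. Each was 1 of the 16 promoters, where AGGTCA was in 16.3%, AGAACA in 19% and TGACGTCA in 1.79% of all promoters. Nothing is read from these single matches. TGTTTAC matched in none of the 16, nor did CAAGGTCA or the repeated AGGTCA. Peaks at the listed genes other than Pdk4 were not analysed here.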
